A study of Caenorhabditis elegans with 2 samples.

Results

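The 6 vitellogenin genes of Caenorhabditis elegans, vit-1 to vit-6, encode the yolk proteins, and they were taken by name from 19973 nuclear protein-coding genes of the WBcel235 annotation. Every peak was kept whose summit, its point of highest signal, lay inside one of the 6 genes or within 2000 bp of it. The samples were 2 biological replicates, numbered 2 and 3 in the labels, of whole young adult hermaphrodites, taken 64 hours after bleached embryos had been held as starved L1 larvae to synchronize them. All animals were of strain OP465, which is unc-119(tm4063) III and carries the transgene wgIs465, and so NHR-179, a nuclear hormone receptor, was made with GFP and FLAG fused to its C-terminus in both replicates. Chromatin was fragmented by sonication and precipitated with an antibody against GFP, and both replicates formed 1 group. No untagged strain was analysed here, so the peaks are described as regions of anti-GFP signal, and which of them depend on NHR-179 was not tested. The tagged protein comes from an added transgene, and no list held a summit inside or within 2000 bp of nhr-179 itself.

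Vitellogenins are large lipid-binding proteins of the lipoprotein family. In the adult hermaphrodite they are made in the intestine, secreted into the body cavity and taken up by growing oocytes through the receptor RME-2. Short promoters drive this intestinal expression, and they contain a pair of known sequence elements, TGTCAAT and CTGATAA, the second of which holds a site for GATA factors such as the intestinal regulator ELT-2.

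All 6 genes had summits in the full lists, and vit-2 alone had one in the authors' optimal list. The optimal list held 256 peaks, the same as the 256 highest peaks of the 9606 in the pooled list, which was called on both replicates together. The list of replicate 2 held 12866 peaks and that of replicate 3 held 13745, and these and the pooled list include background regions. Inside or within 2000 bp, an optimal summit was found for 1 of the 6 vitellogenin genes, where the share over all nuclear protein-coding genes was 1.71% and over the 2731 protein-coding genes of X was 4.58%. The pooled list and each replicate list had summits for 6 of 6, against 47.1%, 56.3% and 59.9% of all nuclear genes and 66.5%, 71.4% and 77.6% of those on X. Most genes of X, where 5 of the 6 lie, thus also had such a summit in these long lists. Counting only summits inside the gene, 1 of 6 had one in the optimal list, against 0.466% of nuclear genes and 1.14% of those on X. In the pooled list 3 of 6 had one (23.2% and 37.1%), in replicate 2 4 of 6 (29.1% and 42.0%) and in replicate 3 4 of 6 (31.4% and 45.8%). The 6 vitellogenin genes are 5128 to 5303 bp long. All these shares are over genes of all lengths, and gene length was not matched. Summits at the 6 genes numbered 21 in the pooled list, 29 in replicate 2 and 24 in replicate 3, and none lay within 200 bp of a tRNA, snoRNA, snRNA or rRNA gene.

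**Figure D1:**
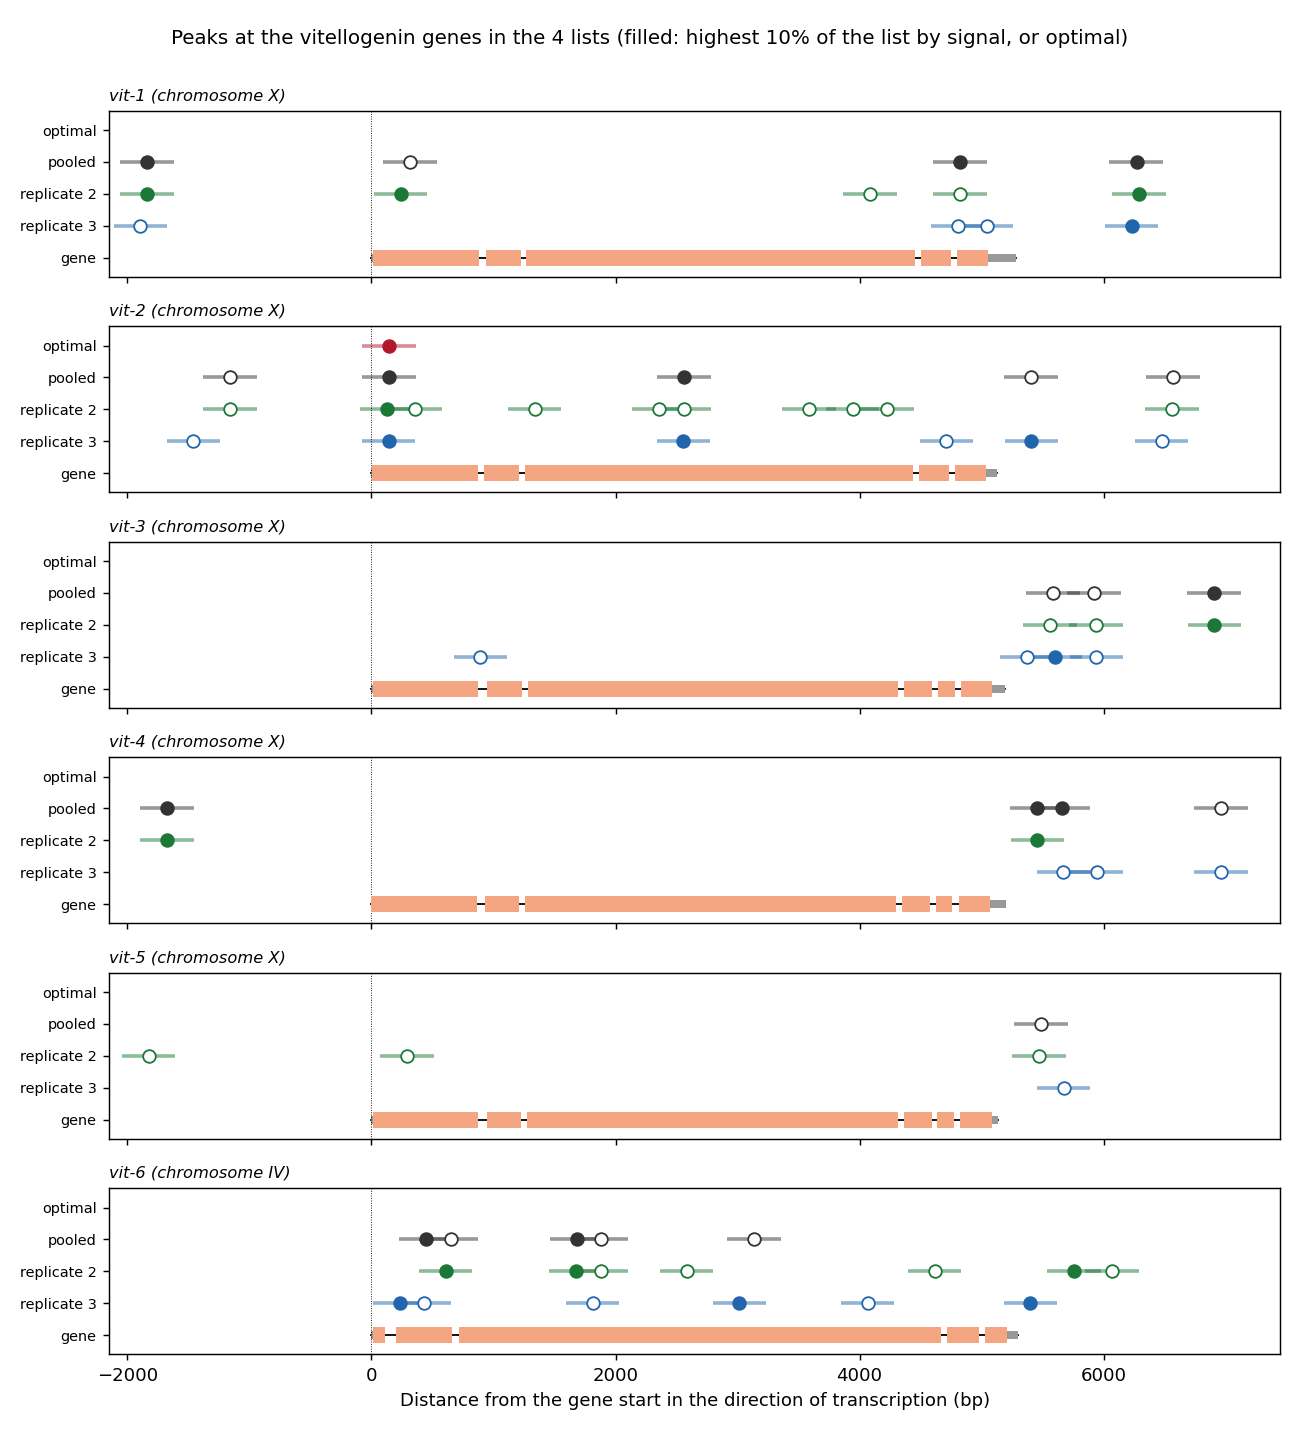
Peaks within 2000 bp of each vitellogenin gene, as bars for intervals and circles for summits, by distance in bp from the gene start, with 1 row for each list and the gene below (wide boxes, coding exons; narrow boxes, untranslated exons). The optimal peak of vit-2 sits at 143 bp, the bodies of vit-3, vit-4 and vit-5 hold no pooled summit, and vit-6 holds 5.

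The optimal peak of vit-2 lay over the start of the gene. vit-2 (WBGene00006926) lies on the plus strand of X from 5101042 to 5106169 and has 5 exons. The peak ran from 5100963 to 5101406 on X, that is, from -79 to 364 bp from the gene start, counted from 0 at the first base and negative upstream. Its summit at 5101185, 143 bp from the start, was in the coding part of exon 1. Its deposited signal, the authors' value for each peak on a scale that is not stated, was 96.7 in the optimal and pooled lists, near the median of 94.7 over the nuclear optimal peaks. The −log10 of the deposited q value was 2.48, the highest of the pooled peaks at these genes. The next were 1.70, at 2558 bp in vit-2, and 1.66, at 5663 bp in vit-4. In vit-1, vit-3, vit-5 and vit-6 the highest pooled values were 1.10, 0.674, 0.0828 and 0.969. Peaks with such low values may be among the background regions that the pooled list includes. In replicate 2 a summit 17 bp away had a signal of 44.6 and rank 223, and in replicate 3 a summit at the same base had a signal of 50.4 and rank 148. This peak therefore stood in the highest 256 of each list, and it was the 1 peak at these genes that did so in all of them. Signals were compared by rank within a list, since the scale may differ between lists.

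The 101 bases centred on that summit are shown because they hold the only vitellogenin peak of the optimal list. Below them are the bases that align to them in vit-1 and in vit-5, with capitals where the base differs from vit-2. The summit base of vit-2 is in capitals. All are on the coding strand, from WBcel235.
vit-2, chrX:5101135-5101235: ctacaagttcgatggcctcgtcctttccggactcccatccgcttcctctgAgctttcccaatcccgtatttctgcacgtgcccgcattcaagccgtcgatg
vit-1, chrX:7727993-7728093: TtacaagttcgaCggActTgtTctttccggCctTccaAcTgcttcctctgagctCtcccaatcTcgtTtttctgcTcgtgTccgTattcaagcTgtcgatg
vit-5, chrX:3403573-3403673: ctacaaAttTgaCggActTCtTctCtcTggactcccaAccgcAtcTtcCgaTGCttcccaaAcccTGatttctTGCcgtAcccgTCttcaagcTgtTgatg
Of the 101 bases, 85 (84.2%) were identical in vit-1 and 74 (73.3%) in vit-5, with 71 (70.3%) in each of vit-3 and vit-4. The peak interval of vit-2 was mostly unique sequence, with 1.94% of its words of 32 bases found a second time in the genome.

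The second peak of vit-2 fell just outside the optimal list. Its summit lay 2558 bp from the start, near the middle of the gene in the coding part of exon 3 (X from 5103378 to 5103821). The pooled signal was 72.4 at rank 277, where the lowest optimal signal was 74.7 and the next pooled peak below it had 74.6. In replicate 3 the summit 4 bp away had a signal of 45.3 and rank 194, and in replicate 2 the summit 5 bp away had 26.7 and rank 1897. The peak was thus among the highest 256 in replicate 3 and far from them in replicate 2. Around this summit the coding strand reads as follows, with the summit base in capitals.
vit-2, chrX:5103550-5103650: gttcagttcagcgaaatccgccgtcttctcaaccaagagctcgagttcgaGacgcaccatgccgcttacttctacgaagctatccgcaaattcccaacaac
The other pooled summits of vit-2 lay outside it, at -1156, 5409 and 6570 bp, with signals of 40.2, 49.96 and 35.6. The one at 5409 bp was 282 bp past the gene end, inside the gene C42D8.9 on the other strand. It had a signal of 43.8 and rank 218 in replicate 3, and no summit within 1000 bp in replicate 2. Replicate 2 had 8 summits inside vit-2 and replicate 3 had 3. As many as 8 were found inside 0.145% of all nuclear protein-coding genes in the replicate 2 list, and as many as 3 inside 3.17% in the replicate 3 list, over genes of all lengths. The pooled list had 2 summits inside vit-2, and as many were found inside 5.88% of these genes. Of the 8 in replicate 2, those at 1336, 3943 and 4227 bp ranked 9274, 9967 and 6724 of 12866.

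vit-1 had 4 pooled peaks, at ranks 545 to 1129 of 9606, and near its start only the pooled list and replicate 2 had one. vit-1 (WBGene00006925, X from 7727889 to 7733168, plus strand) is the closest relative of vit-2, with 94.0% of aligned coding bases identical. Its highest pooled peak, with a signal of 59.7 at rank 545, had its summit 4822 bp from the start in the coding part of exon 5. The partners of this peak in replicates 2 and 3 had signals of 28.0 and 23.5 at ranks 1513 and 3013. Both replicates thus held it, at lower ranks than in the pooled list.
The summit nearest the start of vit-1 was at 316 bp in the pooled list, with a signal of 50.3. Replicate 2 had its highest vit-1 peak there, with the summit at 239 bp, a signal of 37.1 and rank 418, and replicate 3 had no summit within 1000 bp of the pooled one. The upstream summit at -1837 bp (signal 55.5) lay inside spp-14, a gene for a saposin-like protein, 73 bp from its start, and the downstream one at 6270 bp (signal 52.6) inside set-12, a gene for a SET domain protein. Both had partners in both replicates within 100 bp, and the downstream one was the highest vit-1 peak of replicate 3 (signal 28.1, rank 1250).

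The near copies vit-3, vit-4 and vit-5 had no pooled summit inside them. vit-3 (WBGene00006927, X from 3567355 to 3572549) and vit-4 (WBGene00006928, X from 3558769 to 3563965) are neighbours on the minus strand, and vit-5 (WBGene00006929, X from 3403471 to 3408603) is on the plus strand. Their coding sequences were 99.0% identical between vit-3 and vit-4, 97.7% between vit-3 and vit-5 and 97.8% between vit-4 and vit-5. In replicate 2 the only summit inside any of the 3 was at 291 bp in exon 1 of vit-5 (signal 19.7, rank 6606), and in replicate 3 it was at 890 bp in an intron of vit-3 (signal 17.5, rank 9891). Neither was within 100 bp of a summit in the other replicate. By contrast vit-1, vit-2 and vit-6 had 2, 2 and 5 pooled summits inside them.

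The 3 genes without internal summits in the pooled list were those with most repeated sequence. Of the words of 32 bases inside each gene, a second copy in the genome was found for 80.2% in vit-3, 83.6% in vit-4 and 60.6% in vit-5, against 22.4% in vit-1, 23.1% in vit-2 and 0% in vit-6. The copies in vit-1 and vit-2 were of each other, and vit-1 and vit-2 shared no word with vit-3, vit-4 or vit-5. Over the 2000 bp upstream and the 2000 bp downstream of the 6 genes the share was at most 1.42%. Just before the start it was higher, at 50% of the last 100 bp for vit-3 and 59% for vit-4. In the first 500 bp of these genes it was 68 to 100% per 100 bp. No repeated word was held by 15 of the 21 pooled peak intervals. The highest share in a pooled interval was 12.6%, at the 316 bp summit of vit-1. How reads that match several places were handled is not given in the sources used here. A missing peak and uncounted reads thus cannot be told apart in vit-3, vit-4 and vit-5, or just before the starts of vit-3 and vit-4.

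**Figure D2:**
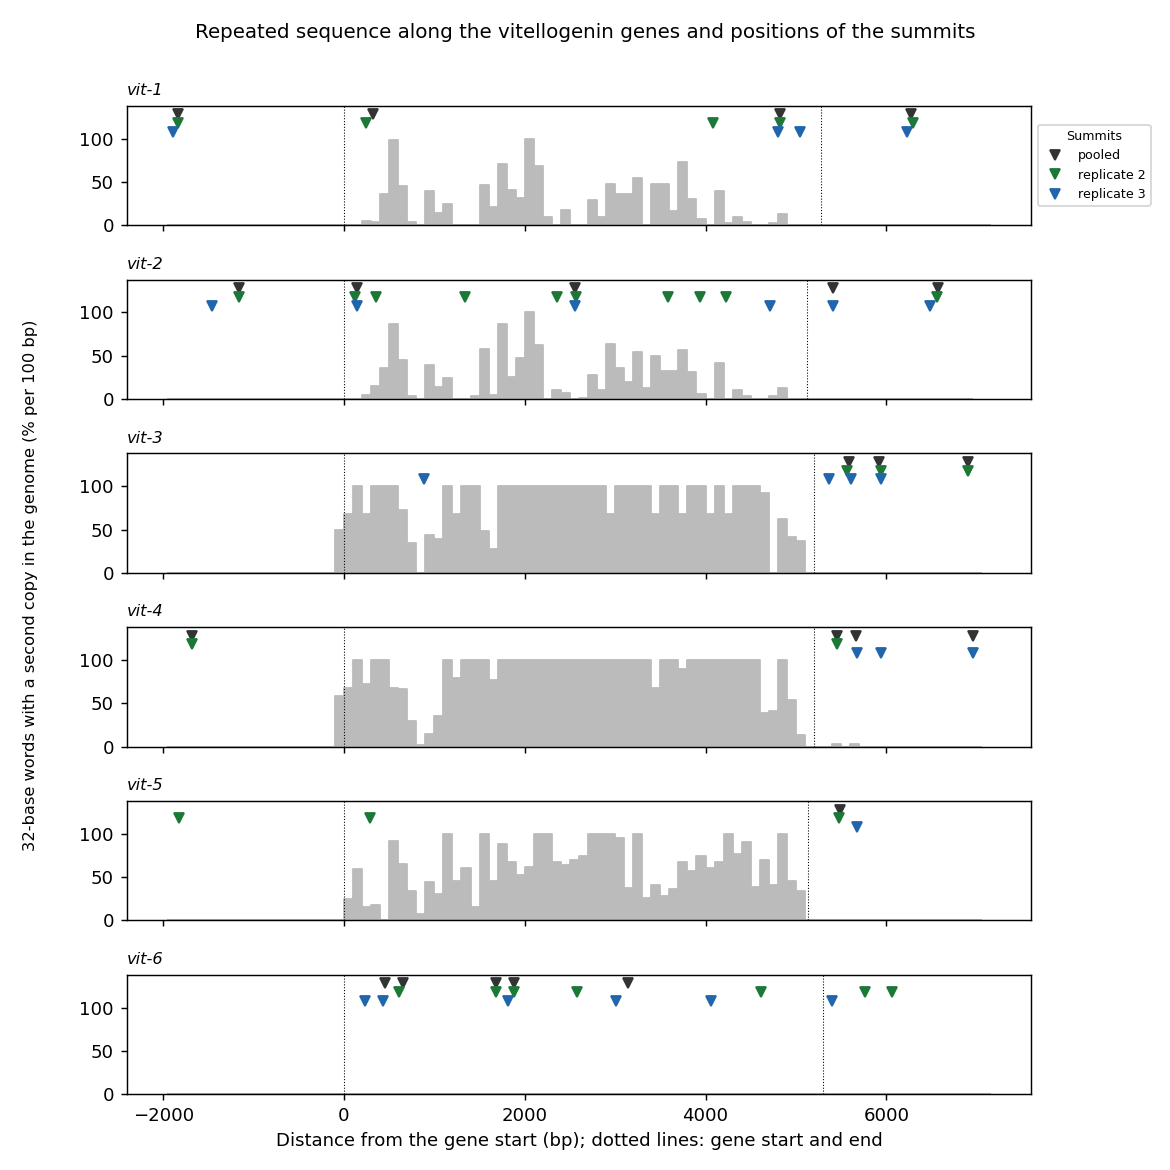
Share of 32-base words that have a second copy in the genome, in % per 100 bp (grey), along each gene by distance in bp from its start, with triangles for the summits of the pooled list and both replicates. Repeated words reach 83.6% of vit-4 as a whole and 0% of vit-6, and the pooled summits of vit-3, vit-4 and vit-5 all lie outside the genes.

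The peaks of vit-3, vit-4 and vit-5 lay mainly past their 3' ends. The highest of the 3 genes was on vit-4, where pooled summits at 5458 and 5663 bp, 262 and 467 bp past the gene end, had signals of 60.9 and 69.8 at ranks 495 and 301. The first was matched in replicate 2 at the same base, with a signal of 49.1 and rank 159, the highest vitellogenin peak of that list. The other was matched in replicate 3, 8 bp away, with a signal of 22.9 and rank 3430. Each replicate thus held 1 of the 2 summits, and neither held both within 100 bp.
The 2 summits lay in copies of a short repeated sequence. In their 101-base windows, 73 of 79 aligned bases (92.4%) were identical, and the longest shared run of 34 bases occurred 2 times in the genome. The windows are shown on the coding strand of vit-4, with capitals for bases identical in the other window.
vit-4 downstream, 262 bp past the end, chrX:3558457-3558557: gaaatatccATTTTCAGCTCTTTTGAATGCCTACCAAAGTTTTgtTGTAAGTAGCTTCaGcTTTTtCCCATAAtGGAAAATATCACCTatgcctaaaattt
vit-4 downstream, 467 bp past the end, chrX:3558252-3558352: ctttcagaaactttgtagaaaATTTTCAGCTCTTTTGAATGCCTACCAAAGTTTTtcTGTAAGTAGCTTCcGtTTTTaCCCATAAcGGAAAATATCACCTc
The summits were 205 bp apart, close to the smallest spacing of 199 bp between neighbouring nuclear summits in the pooled list. Of 9577 neighbouring pairs in that list, 434 (4.53%) were under 250 bp apart, among them 2 pairs in vit-6. The part of that spacing in the position of the 2 summits was not tested. The remaining pooled summit downstream of vit-4, 1766 bp past its end and inside rgs-7, a gene for a regulator of G protein signalling, was weak (signal 31.5). The highest vit-4 peak of replicate 3, 747 bp past the end (signal 25.7, rank 1947), had no pooled summit within 100 bp.

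Downstream of vit-3 the pooled list had summits 388, 724 and 1713 bp past the gene end, with signals of 47.7, 36.6 and 53.1. The first ranked 313 in replicate 3 (signal 38.5) and 10483 in replicate 2 (signal 17.2). The last, which also lies upstream of vit-4, at -1677 bp from its start, ranked 521 in replicate 2 (signal 35.1) and had no partner within 100 bp in replicate 3. The 2 replicates therefore differed in which of these peaks stood high.
vit-5 had 1 pooled summit, 355 bp past its end and inside unc-78, the gene for an actin-interacting protein on the other strand. Its signal was 35.9 at rank 4989, the lowest of the 6 genes for their highest peak. Replicate 2 had a signal of 24.5 there (rank 2755), and replicate 3 had its nearest summit 188 bp away (signal 24.0, rank 2760).

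vit-6 carried the most summits inside its body and none in its flanks in the pooled list. vit-6 (WBGene00006930, IV from 8261157 to 8266459, plus strand) is the one vitellogenin gene not on X, and its coding sequence was 61.6 to 62.4% identical to those of the others. Its precursor protein is cut into smaller yolk proteins. Pooled summits lay at 449, 650, 1682, 1884 and 3139 bp, all in coding exons, with signals of 58.0, 30.3, 52.3, 36.8 and 38.1. The first 2 were 201 bp apart and the next 2 202 bp, close to the smallest spacing of 199 bp in the list. The summit at 650 bp ranked 9324 of 9606, and its signal was close to the lowest in the list, 30.1. Each replicate also had 5 summits inside the gene. In the pooled, replicate 2 and replicate 3 lists, 5 or more were found inside 0.365%, 0.706% and 0.626% of all nuclear protein-coding genes, over genes of all lengths.
The positions agreed less well than the number. Only the pooled summit at 1884 bp had a partner within 100 bp in both replicates, at ranks 2194 and 4969. The highest internal peak of replicate 2 was at 1678 bp (signal 45.7, rank 206), and that of replicate 3 at 231 bp (signal 38.9, rank 300). Replicate 3 had its highest vit-6 peak 98 bp past the gene end (signal 39.3, rank 287), and replicate 2 had one 457 bp past it (signal 30.2, rank 1032), 359 bp from the other. The bases around the highest pooled summit are shown with the summit base in capitals.
vit-6, chrIV:8261556-8261656: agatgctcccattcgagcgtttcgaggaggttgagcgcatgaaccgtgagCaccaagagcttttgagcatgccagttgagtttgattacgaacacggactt

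Ordered by the rank of their highest pooled peak, the genes ran vit-2 (1.39% of the list from the top), vit-4 (3.13%), vit-1 (5.67%), vit-6 (6.45%), vit-3 (9.41%) and vit-5 (51.9%). The replicates gave other orders, and vit-2 was first in replicate 3 but below vit-4 and vit-6 in replicate 2. In replicate 2 the highest peaks of vit-1 to vit-6 stood at 3.25%, 1.73%, 4.05%, 1.24%, 21.4% and 1.60%. In replicate 3 they stood at 9.09%, 1.08%, 2.28%, 14.2%, 20.1% and 2.09%. vit-2 was within the highest 2% in all 3 lists and vit-5 lowest in all 3, while vit-4 and vit-1 ranked high in replicate 2 and lower in replicate 3. Apart from the last place of vit-5, neither the first place nor the order of the other genes was held by both replicates.

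**Figure D3:**
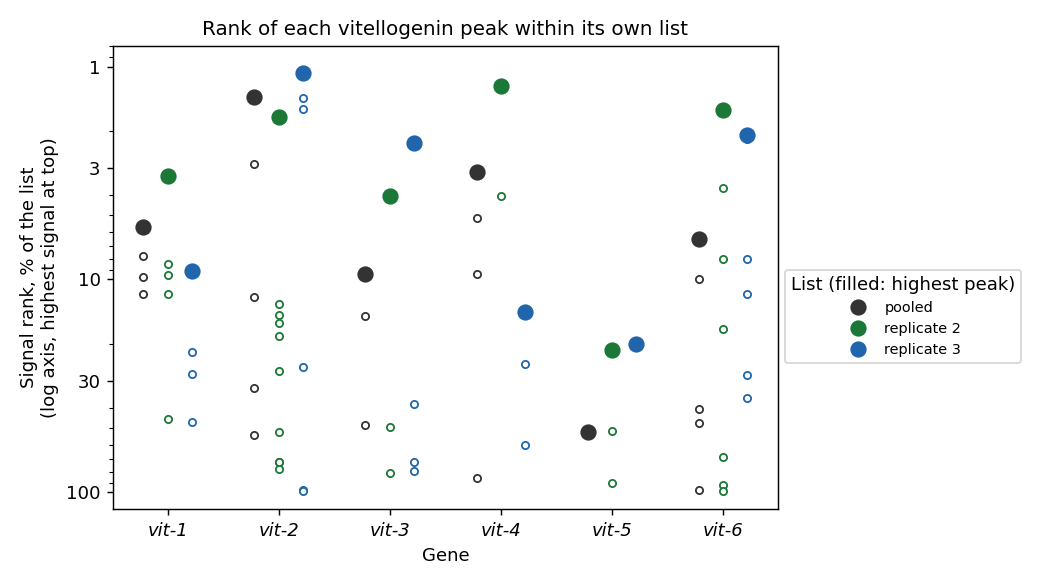
Rank of each vitellogenin peak by deposited signal, as % of its own list on a log axis with the highest signal at the top, by gene and list (filled, the highest peak of that gene). vit-2 stands at 1.08 to 1.73% in the 3 lists and vit-5 at 20.1 to 51.9%.

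Partners in both replicates were found for 9 of the 21 pooled vitellogenin peaks within 100 bp (42.9%), against 24.5% of all nuclear pooled peaks. Replicate 2 held 16 of the 21 and replicate 3 held 13, and 1 peak, at 3139 bp in vit-6, was in neither. The vitellogenin peaks ranked high in the pooled list, at a median of 11.8% from the top. Of the 10 that were in the highest 10% of nuclear pooled peaks, 5 had a partner in both replicates, against 76.5% of all nuclear pooled peaks in that range.

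By position, most summits fell in the gene bodies and at the 3' ends, and few upstream. None fell in the 1000 bp before a gene start, where 10.2% of all nuclear genes and 15.5% of those on X had a pooled summit. The 21 pooled summits gave 22 assignments, since 1 lies between vit-4 and vit-3. Of these, 3 were upstream, 8 in the body and 11 at the 3' end, counted as the last 500 bp of a gene and the 2000 bp after it. Replicate 2 gave 4, 16 and 10 and replicate 3 gave 2, 8 and 14. These regions differ in length, and the same split over all genes is not given here. The nearest upstream summits in any list were those of vit-2 at -1156 bp (pooled), -1161 bp (replicate 2) and -1459 bp (replicate 3). All 9 pooled summits inside the genes were in coding exons, which make up 93.1% of the gene lengths.

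Windows near the start and the end were also counted, and they were chosen after the positions were seen. In the 1000 bp before the start, 0 of 6 genes had a summit in the pooled list, replicate 2 or replicate 3, against 10.2%, 13.5% and 14.2% of all nuclear protein-coding genes and 15.5%, 18.7% and 20.8% of those on X. In the first 500 bp, 3, 3 and 2 genes had one, against 6.35%, 8.18% and 8.32% of nuclear genes and 9.12%, 11.4% and 11.5% on X. In the 500 bp after the end, 4 genes had one in each list, against 8.21%, 9.94% and 10.4% of nuclear genes and 10.1%, 11.6% and 12.6% on X. The genes were not the same ones each time. In the last window they were vit-2, vit-3, vit-4 and vit-5 in the pooled list, vit-3, vit-4, vit-5 and vit-6 in replicate 2, and vit-2, vit-3, vit-4 and vit-6 in replicate 3. With 6 genes, each gene moves a share by 16.7 percentage points, so 0 of 6 before the start is not read as fewer than the shares over all. Repeated sequence also limits these counts at the starts of vit-3 and vit-4.

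**Figure D4:**
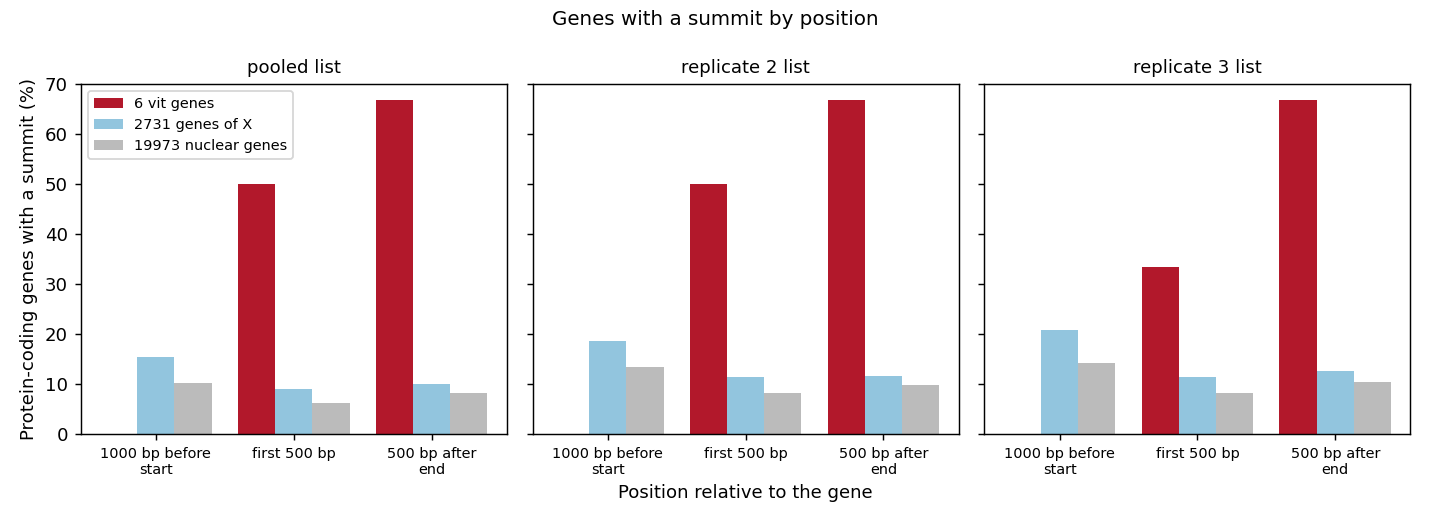
Share of genes (%) with a summit in the 1000 bp before the start, the first 500 bp and the 500 bp after the end, for the 6 vitellogenin genes, the 2731 protein-coding genes of X and all 19973 nuclear protein-coding genes, in 3 lists. The vitellogenin bars are at 0 of 6 genes before the start and at 4 of 6 after the end in every list.

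Inside the 6 genes the pooled list had 0.288 summits per kb, and their coding exons had 0.310 per kb. Over all nuclear coding exons the density was 0.113 per kb and over those of X 0.169 per kb. In replicate 2 the coding exons of the vitellogenin genes had 0.585 summits per kb, against 0.150 per kb over nuclear and 0.213 per kb over X coding exons. In replicate 3 they had 0.344, against 0.158 and 0.230. The density was above that of all coding exons in each list, while within the family it was 0 in vit-3, vit-4 and vit-5 in the pooled list.

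The promoters held the known yolk gene elements, and 1 peak reached one of them. In the window from 250 bp before to 50 bp after the start, on either strand, TGTCAAT was in 6 of 6 vitellogenin promoters, against 5.77% of all 19973 promoters. CTGATAA was in 5 of 6, all but vit-3, against 8.15%. Both are known as elements of vitellogenin promoters, so these counts only describe where they lie and are no independent result. The shorter GATA site TGATAA, which is part of CTGATAA and so counts those matches again, was in 6 of 6 against 30.2%. The forkhead site GTAAACA of DAF-16 was in 0 of 6 against 4.77%. Both elements are shown in capitals, on either strand, in the 250 bases before the start of vit-2, whose peak reaches into them, and of vit-5 and vit-6, which represent the other branches of the family.
vit-2 promoter, chrX:5100792-5101041: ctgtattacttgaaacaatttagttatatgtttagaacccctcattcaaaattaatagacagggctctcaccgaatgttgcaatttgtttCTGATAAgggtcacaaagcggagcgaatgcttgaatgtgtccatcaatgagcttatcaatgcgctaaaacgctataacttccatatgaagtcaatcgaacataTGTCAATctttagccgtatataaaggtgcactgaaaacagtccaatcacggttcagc
vit-5 promoter, chrX:3403221-3403470: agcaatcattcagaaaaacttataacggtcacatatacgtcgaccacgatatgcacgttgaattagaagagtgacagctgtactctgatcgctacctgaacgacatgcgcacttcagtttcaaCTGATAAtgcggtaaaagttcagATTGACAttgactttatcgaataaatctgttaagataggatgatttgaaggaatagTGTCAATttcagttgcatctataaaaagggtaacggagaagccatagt
vit-6 promoter, chrIV:8260907-8261156: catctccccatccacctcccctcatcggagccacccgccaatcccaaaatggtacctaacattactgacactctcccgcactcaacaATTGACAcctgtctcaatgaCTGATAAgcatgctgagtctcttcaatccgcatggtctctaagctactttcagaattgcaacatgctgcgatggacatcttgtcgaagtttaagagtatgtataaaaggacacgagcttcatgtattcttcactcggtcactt
The 6 promoters held 13 matches to TGTCAAT or CTGATAA. In each of the 4 lists 1 of the 13, the TGTCAAT of vit-2 at -57 bp, was covered by a peak interval, that of the peak with its summit in exon 1. The TGTCAAT matches of vit-3 at -50 bp and of vit-4 at -59 bp lie where sequence just before the start was repeated. Missing coverage there has the same limit. The vit-4 match at -97 bp lies further upstream, outside that repeated sequence.

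The short sites of nuclear receptors were counted in the same promoters and at the summits, and with so few genes and summits the counts are given only beside the shares over all. AGGTCA or GGGTCA was in 1 of 6 promoters, that of vit-2, against 12.6% of all promoters, and AGTTCA in 1 of 6, that of vit-5, against 20.4%. The vit-2 match at -153 bp lies directly after its CTGATAA and outside the peak interval. Within 50 bp of the 21 pooled summits, AGGTCA or GGGTCA was found at 1, that at 3139 bp in vit-6, and AGTTCA at 2, those at 316 bp in vit-1 and at 2558 bp in vit-2. Over all 9583 nuclear pooled summits the shares were 4.32% and 5.41%. The window of the optimal vit-2 summit held none of the 6 motifs searched.

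Among the other genes of the yolk pathway, 1 of 29 had an optimal summit inside or within 2000 bp. The share was 1.71% over all nuclear protein-coding genes and 4.58% over those on X, so this count is near the shares over all. Of 19 regulators of yolk gene expression, lin-14, a heterochronic gene and target of the lin-4 microRNA, had an optimal summit in its body, on X from 11467163 to 11467606 with a signal of 77.7. It ranked 121 in replicate 2, and the highest lin-14 peak of replicate 3 ranked 3438. lin-14 is a long gene of 20312 bp, with 11 pooled summits inside or within 2000 bp. Pooled summits were found for 15 of the 19 regulators. The highest of the rest were at unc-62, a MEIS family homeobox gene (signal 58.1), rict-1 of TOR complex signalling (50.7), tra-1 of sex determination (49.8) and daf-16, the FOXO factor of insulin signalling (48.4). These genes are 13989 to 26206 bp long. Pooled summits of rict-1, tra-1 and daf-16 lay at 20256 bp, past the end of rict-1, and at 9412 and 15186 bp. The highest replicate 3 peaks of these genes lay elsewhere, at -1118, 22456 and 26973 bp. For unc-62 the highest peaks of the pooled and replicate lists lay at 5183 to 5236 bp. Of 10 genes for the assembly and uptake of yolk particles, 8 had pooled summits and 0 an optimal one. Among them rme-2, the yolk receptor of the oocyte, had a highest pooled signal of 40.7; it was named for its role after its value was seen. These counts of genes with a pooled summit compare with 47.1% of all nuclear protein-coding genes, over genes of very different lengths.

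The genes whose highest peaks had ranks most like those of vit-2, over the pooled list and both replicates, were F55A11.11, F55A11.6 and F55A11.7 on V and F09E5.7 and F09E5.8 on II, among 6668 genes with a peak in all 3 lists. Likeness was the Euclidean distance over the 3 rank percentiles. The first 3 genes share 1 peak with a pooled signal of 96.97, within 200 bp of the snoRNA gene F55A11.10, at a distance of 0.207 percentage points, and the other 2 share 1 peak with 94.3 at 0.239. They stand for 2 peaks, not 5 separate cases.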

How the data were processed

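The values were 4 ce11 peak lists in narrowPeak form from 2 replicates. The authors called peaks for each replicate and for both pooled, using alignments and a control alignment, and thresholded the optimal list by the irreproducible discovery rate, per the descriptions deposited with the files. The deposited signal of each peak is the authors' value on a scale that is not stated, and the −log10 of the q value is also as deposited. Aligner, caller, versions and the handling of repeated reads are not given in the sources used here. Without counts the depth of each replicate is unknown, and signals carry no interval. The 4 ce10 lists were not used here, since no gene coordinates on that build were given.

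Summits were column 2 plus column 10, written from 1. Genes were those of Ensembl release 115 on WBcel235, the assembly of ce11, and sequences came from the RefSeq genome of that assembly. Ranks were taken by signal within a list. Words of 32 bases were counted on both strands of the genome. Coding sequences were aligned with Biopython 1.88 (match 1, mismatch -1, gap opening -4, extension -0.5), in place of proteins, for which no table was given. Assignment of summits to genes was tested on simulated summits. With 1 group, no test between conditions was made, and counts are given beside those over all genes. Genes were named by fixed rules, which were the 6 members, yolk pathway genes with an optimal summit and the 4 others with the highest pooled signal, the 5 genes most like vit-2, and neighbours that hold a summit. The members, lists and rules were chosen with earlier results of these data known, and the windows at gene starts and ends, coding exon densities, element coverage, summit spacing, the vit-4 repeat and the sharing of the highest peaks were chosen after the values were seen. Alternatives changed the distance, list, matching, ranking, gene limits, word length and promoter window.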

Additional observations from a re-analysis of the deposited data

How the results depend on the processing

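No paired analysis was possible because both replicates belong to 1 group. The count of 1 vitellogenin gene with an optimal summit was the same at 500, 1000 and 5000 bp, inside the gene and by interval overlap. It was 0 in the upper 50% of the optimal list, 2 in the top pooled peaks at double the number and 6 in the full pooled list, and without 1 replicate it ran from 1 to 6 (in the top 256 peaks, 3 without replicate 3 and 1 without replicate 2). Genes with a pooled summit fell from 6 to 3 when summits had to lie inside the gene. Pooled peaks with partners in both replicates were 16 by an overlap of 1 bp and 14 by an overlap of 50% of the interval, against 9. The shares over all nuclear pooled peaks by these looser matches are not given here, so the rise is not read as closer agreement at these genes. Ranked within their own chromosome, the highest peaks of vit-2, vit-3, vit-5 and vit-6 stood at 2.16%, 11.2%, 53.9% and 4.89%. With a distance of 1000 bp the upstream summits were 0. Body summits ran from 8 to 16 and summits per kb inside the genes from 0.352 to 0.544 when 1 replicate was left out, the higher values without replicate 3, an alternative added after the data were seen. Repeated words of 24 and 50 bases made up 30.5% and 12.8% of vit-1, 31.5% and 13.1% of vit-2, 83.3% and 74.1% of vit-3, 86.2% and 78.6% of vit-4 and 67.6% and 49.1% of vit-5. In the 500 bp before the start, AGGTCA or GGGTCA was in 3 promoters and AGTTCA in 2. The cause of these changes was not tested. The ce10 lists were not run. Precision is limited by the unknown depth and by the 2 replicates.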
